A study of Mus musculus with 20 samples.

Results

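Transcripts of 8 genes of the complement system were followed in 20 RNA-seq libraries of mouse bone marrow-derived macrophages (BMDMs). The genes are *C1qa*, *C1qb* and *C1qc*, which encode the chains of C1q, *C3*, *Cfb* (for factor B) and *Cfp* (for properdin), and the receptor genes *C3ar1* and *C5ar1*. They were chosen by name as known complement components and receptors that are measured in macrophages, and all 8 were found among the 21963 genes of the count table. Macrophages came from WT mice and from *Mcu*-/- mice, in which the gene of the pore subunit of the mitochondrial calcium uniporter is deleted, at 15 to 25 weeks of age, male and female. In the *Mcu*-/- mice a floxed *Mcu* allele is deleted by Cx3cr1-cre, so the deletion is driven by a promoter of monocytes and macrophages and its completeness in culture depends on that Cre. WT macrophages were left untreated (n = 4), given zymosan for 3 h at 1 cell to 2 particles (n = 5), or given zymosan with 10 µM BAPTA-AM (n = 4). *Mcu*-/- macrophages were left untreated (n = 4) or given zymosan in the same way (n = 3). Zymosan is a yeast cell wall preparation that macrophages bind and engulf, and BAPTA-AM is a cell-permeant chelator that buffers cytosolic calcium. The submitters call the samples of a group biological replicates, and the number of mice per group is not given in the sources used here.

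Complement is a set of proteins that coat microbes and debris and call in leukocytes. C1q binds antibody and dying cells and starts the classical pathway. C3 is the protein on which all pathways converge. Cleaved C3 pairs with factor B to form the convertase of the alternative pathway, and properdin stabilizes that convertase. The small fragments C3a and C5a signal through the receptors encoded by *C3ar1* and *C5ar1*. Most complement protein of plasma comes from the liver, but macrophages are a main source of C1q and properdin and make C3 and factor B locally. Zymosan is a classical activator of the alternative pathway.

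The C1q genes stand side by side on chromosome 4 (chr4:136880129-136898803, mm10, minus strand), within 18.7 kb, in the order *C1qb*, *C1qc* and *C1qa*. *C3* lies at chr17:57203970-57228136 and *Cfb* at chr17:34856374-34862518. *C3ar1* lies at chr6:122847138-122856161, *C5ar1* at chr7:16246743-16259540 and *Cfp* at chrX:20925454-20931555, all on the minus strand in GENCODE M21. RefSeq start regions on GRCm38.p6, the build mm10 stands for, were at hand for 6 of the 8 members, not *C1qa* and *Cfb*. Those of 4 members are printed: *C3*, *C3ar1* and *C5ar1*, which rose with zymosan in *Mcu*-/- macrophages, and *Cfp*, which fell. *C1qb* and *C1qc*, whose windows are not printed, rose as well, by a log2 of 0.61 each, a size that depends on the library scaling given below. Each window runs from 250 bases before the start site to 50 bases from it on, 5′ to 3′ on the strand of the gene. Capitals mark matches to the motifs named below, on either strand.
C3: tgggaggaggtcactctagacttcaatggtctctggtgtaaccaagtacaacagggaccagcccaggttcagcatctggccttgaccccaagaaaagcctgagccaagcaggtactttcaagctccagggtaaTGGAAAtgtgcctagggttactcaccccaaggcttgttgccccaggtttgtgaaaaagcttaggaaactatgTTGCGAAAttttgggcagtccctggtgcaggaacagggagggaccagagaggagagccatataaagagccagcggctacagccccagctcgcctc
C3ar1: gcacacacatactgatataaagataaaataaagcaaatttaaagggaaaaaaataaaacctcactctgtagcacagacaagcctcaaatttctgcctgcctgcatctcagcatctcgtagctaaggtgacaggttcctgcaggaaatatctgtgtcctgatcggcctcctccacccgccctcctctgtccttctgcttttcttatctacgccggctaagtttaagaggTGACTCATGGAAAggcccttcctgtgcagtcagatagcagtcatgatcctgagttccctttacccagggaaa
C5ar1: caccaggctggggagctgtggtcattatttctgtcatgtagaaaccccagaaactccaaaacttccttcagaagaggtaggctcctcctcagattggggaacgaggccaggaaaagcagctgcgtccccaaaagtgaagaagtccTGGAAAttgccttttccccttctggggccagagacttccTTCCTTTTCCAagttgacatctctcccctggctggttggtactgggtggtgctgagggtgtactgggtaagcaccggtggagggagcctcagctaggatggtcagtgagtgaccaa
Cfp: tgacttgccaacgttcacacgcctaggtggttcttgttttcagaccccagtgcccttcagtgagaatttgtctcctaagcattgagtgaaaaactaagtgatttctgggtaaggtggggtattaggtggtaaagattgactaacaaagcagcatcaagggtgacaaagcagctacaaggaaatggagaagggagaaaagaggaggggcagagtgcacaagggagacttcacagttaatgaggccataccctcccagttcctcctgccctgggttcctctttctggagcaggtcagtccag
These windows are chr17:57228087-57228386 for *C3*, chr6:122856108-122856407 for *C3ar1*, chr7:16259289-16259588 for *C5ar1* and chrX:20931506-20931805 for *Cfp*. *C3* held TTGCNNAA, the C/EBP motif, 45 bases before its start site, and TGGAAA, the NFAT core, 117 bases before it. *C3ar1* held the AP-1 motif TGANTCA 22 bases before its start site, directly followed by an NFAT core. *C5ar1* held NFAT cores 105 and 61 bases before its start site and the interferon element GAAANNGAA at 66 bases, and the nearer NFAT core overlaps that element on the reverse strand. *C1qc* held an NF-kB consensus 41 bases and an NFAT core 78 bases before its start site. In *Cfp* and *C1qb* none of the motifs searched was found, which included TGACGTCA (CRE), TTCNNNGAA (GAS) and AGAGGAAG (PU.1). Over all 32851 start regions of this length, the NFAT core was present in 21.4%, C/EBP in 10.8%, GAAANNGAA in 8.56%, NF-kB in 8.46%, GAS in 8.3%, AP-1 in 7.81%, PU.1 in 4.55% and CRE in 1.79%. A match describes letters in the window and not a bound site.

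Levels are given as CPM, counts relative to the TMM-scaled library size, and libraries held 14.4 to 23.95 M counts. The TMM factors were 1.22 to 1.24 in WT untreated and 0.865 to 0.881 in WT zymosan libraries. In *Mcu*-/- they were 1.15 to 1.23 untreated and 0.838 to 0.847 with zymosan. The direction of small zymosan responses, and the size of all of them in both genotypes, depends on this scaling. In WT untreated replicate 1 *C1qb* had 26458 of 19.1 M counts, and in WT zymosan replicate 1 it had 23883 of 20.3 M. In untreated *Mcu*-/- replicates 1 and 4 it had 33340 of 22.1 M and 41184 of 21.9 M. In the *Mcu*-/- zymosan libraries it had 32993 of 20.1 M, 35637 of 21.1 M and 39634 of 23.95 M. Scaling by total counts alone was not tested. Differences are log2 fold changes from edgeR's quasi-likelihood fit of all 20 libraries over 11707 genes, called at a Benjamini-Hochberg adjusted p under 0.05. *Mcu* itself was at 8.36, 6.49, 7.66 and 6.84 CPM in WT untreated and 7.23, 6.93, 6.38, 6.57 and 6.10 CPM in WT zymosan macrophages. It was at 2.85, 3.77, 2.63 and 4.05 CPM in untreated and 3.65, 3.62 and 3.98 CPM in zymosan-stimulated *Mcu*-/- macrophages, below every WT library but not at 0. Untreated *Mcu*-/- replicate 4 stood apart from its group, its counts differing from theirs by a chi-square of 217 to 225 per gene, where the remaining 28 pairs of replicates gave 1.60 to 6.53. The spread of each gene was estimated over all 5 groups, so that library also affects comparisons it is not part of. The common biological coefficient of variation of the fit was 12.4% with that library and 3.56% without. Results are therefore given with and without that library. The 3 zymosan columns of *Mcu*-/- carry the numbers 3, 4 and 5, while their sample titles count 1 to 3, and values are given in column order. All 7 macrophage markers looked for were present at 1 CPM or more in each group, while T cell markers were at or near 0.

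After zymosan, 7 of the 8 members differed between the genotypes. In WT macrophages, on the TMM scale, 5 of the 8 members were higher with zymosan (*C1qb*, *C3*, *Cfb*, *Cfp* and *C5ar1*) and 0 lower. Of all genes tested, 32.4% were higher and 36.8% lower. Without the library that stood apart, *C1qc* and *C3ar1* were also higher, so 7 members rose, against 37.2% higher and 41.3% lower of all genes. BAPTA-AM gave 0 member calls in either direction in the edgeR fit of all libraries, with 6.43% of genes called higher and 6.33% lower. DESeq2 also gave 0 member calls, and in edgeR 0 members had an unadjusted p under 0.05. For counts at an unadjusted p, here and below, no share of all genes was computed. With that library left out, which belongs to neither group compared, 7 members were lower with BAPTA-AM and 0 higher, against 16.5% and 15.3% of all genes. With zymosan, 5 members had higher levels in *Mcu*-/- macrophages than in WT (*C1qa*, *C1qb*, *C1qc*, *C3ar1* and *C5ar1*), beside 31.8% of all genes, and 2 were lower (*Cfb* and *Cfp*), beside 30.3%. *C3* joined the lower members without replicate 4, beside 33.7% of genes lower and 36.4% higher in that fit. The median log2 fold change of the members was 0.33 for zymosan in WT macrophages, −0.18 for BAPTA-AM and 0.59 for *Mcu*-/- against WT with zymosan, where that of all genes was −0.044, 0.00049 and 0.016. In exact two-sided permutation tests of log2 CPM, 7 members gave p = 0.00794 for zymosan in WT, the smallest that 4 against 5 libraries allow, and *C1qa* gave p = 0.516. For *Mcu*-/- against WT with zymosan the exact permutation test gave p = 0.0179 for all 8, the smallest for 3 against 5 libraries. For BAPTA-AM the exact permutation p was 0.00794 for 6 members, 0.0159 for *Cfp* and 0.103 for *Cfb*. The share of all genes that reach these permutation p-values was not computed, so these counts of members have no background beside them.

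**Figure D1:**
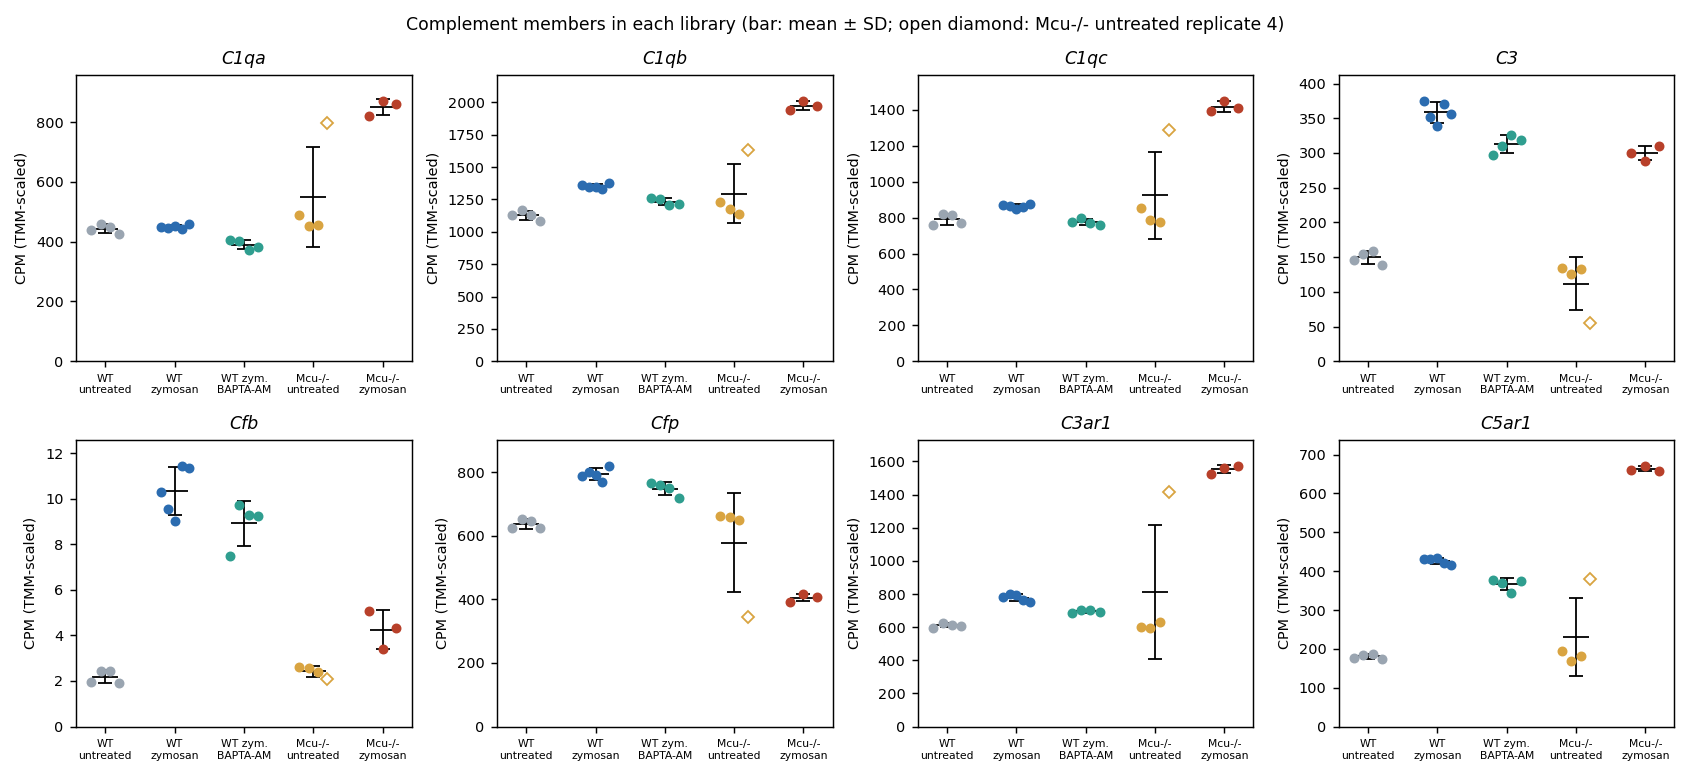
CPM of the 8 complement members (y axes, from 0) in each of the 20 libraries by group (x axes), with the mean and SD of each group as bars. The open diamond, untreated *Mcu*-/- replicate 4, lies away from the other untreated *Mcu*-/- libraries for every member but *Cfb*, and the *Mcu*-/- zymosan libraries are the highest group for *C1qa*, *C1qb*, *C1qc*, *C3ar1* and *C5ar1*.

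C1q transcripts changed by at most 1.2-fold with zymosan in WT macrophages and after zymosan stood 1.46- to 1.89-fold above WT in *Mcu*-/- macrophages. *C1qa*, which encodes the A chain, had 440.5, 460.2, 450.0 and 424 CPM in WT untreated and 448, 446, 453, 443 and 458 CPM in WT zymosan macrophages. These groups overlapped, and the log2 fold change of 0.018 (95% interval −0.23 to 0.26, edgeR adjusted p = 0.902) was not called. With BAPTA-AM, *C1qa* was at 405, 401, 371 and 383 CPM, below every WT zymosan library. Its log2 fold change of −0.20 was not called with all libraries (edgeR adjusted p = 0.306) and was called without replicate 4 (edgeR adjusted p = 1.2e-06). In *Mcu*-/- macrophages *C1qa* was at 491, 451, 455 and 798 CPM untreated and 819, 872 and 861 CPM with zymosan. The *Mcu*-/- zymosan libraries all lay above those of the other groups, and untreated replicate 4 lay just under them. Compared with WT zymosan, *C1qa* was 1.89-fold higher, a log2 change of 0.92 (standard error 0.12, adjusted p = 7.9e-06 in edgeR).

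*C1qb*, for the B chain, rose with zymosan from 1128, 1169, 1130.4 and 1084 CPM to 1360.4, 1347, 1345, 1328 and 1379.5 CPM in WT macrophages. The groups did not overlap, and the log2 change was 0.26 (standard error 0.075, adjusted p = 0.00441 in edgeR). BAPTA-AM macrophages, at 1259, 1250.1, 1205 and 1211 CPM, lay between the untreated and the zymosan libraries. In *Mcu*-/- macrophages *C1qb* was at 1233, 1178, 1136 and 1634 CPM untreated and 1942, 2014 and 1971 CPM with zymosan, again with replicate 4 as the highest untreated library. With zymosan it was 1.46-fold higher than in WT (log2 0.55, SE 0.08, edgeR adjusted p = 1.69e-05).

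*C1qc*, for the C chain, was at 757, 822, 813 and 772 CPM in WT untreated and 869, 863, 850.4, 859.7 and 878 CPM in WT zymosan macrophages. Every zymosan library lay above every untreated library, but the log2 fold change of 0.13 was called only without replicate 4 (edgeR adjusted p = 8.99e-05, against 0.283 with it) and in a fit of the groups compared alone (0.000154). *C1qc* was at 777, 796, 769 and 759.7 CPM with BAPTA-AM, within the range of untreated macrophages. It was at 852, 788, 778 and 1287 CPM in untreated and 1392, 1452 and 1409.7 CPM in zymosan-stimulated *Mcu*-/- macrophages, 1.64-fold higher than in WT with zymosan (log2 0.71, edgeR adjusted p = 2.76e-05).

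C1q is assembled from equal numbers of its chains, but the transcripts were not at equal levels. Levels per kb of exon divide CPM by the union of all annotated exons, 1040 bases for *C1qa*, 1088 for *C1qb* and 1931 for *C1qc*. The shares and other levels per kb depend on these lengths, and which transcript forms were expressed was not tested. On this scale *C1qb* made up 55.4 ± 0.449% of the summed C1q level in WT untreated macrophages, *C1qa* 22.8 ± 0.116% and *C1qc* 21.9 ± 0.488% (SD, n = 4). With zymosan the share of *C1qb* was 58.6 ± 0.119% and that of *C1qa* 20.4 ± 0.153% (n = 5), with no overlap with untreated macrophages. In *Mcu*-/- zymosan macrophages *C1qb* was at 53.9 ± 0.242% and *C1qa* at 24.3 ± 0.334% (n = 3), so the shares lay on the other side of the untreated WT values. The share of *C1qc* stayed between 20.7 and 22.7% in all 20 libraries. The summed level was 1804 to 1943 CPM per kb in WT untreated, 2092 to 2163 in WT zymosan, 1862 to 1949 with BAPTA-AM and 3294 to 3442 in *Mcu*-/- zymosan macrophages. In untreated *Mcu*-/- macrophages it was 1884 to 2046 in replicates 1 to 3 and 2935 in replicate 4.

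**Figure D2:**
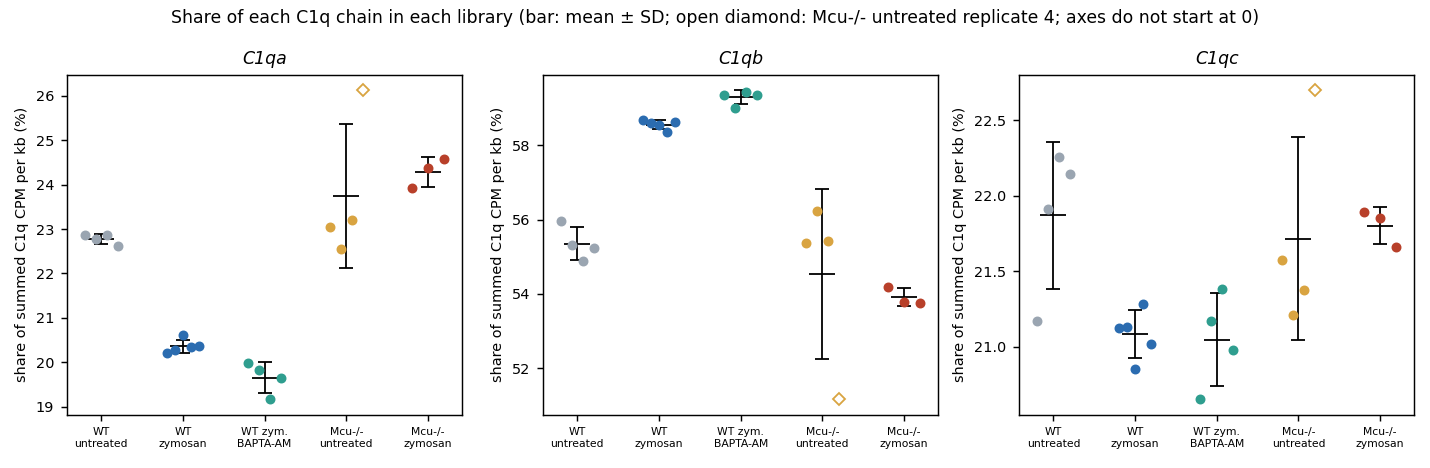
Share of *C1qa*, *C1qb* and *C1qc* in the summed C1q level per kb of exon (y axes, percent, not starting at 0) in each library by group (x axes), with mean and SD as bars. The *C1qb* share runs from 53.8 to 54.2% in *Mcu*-/- zymosan and from 58.4 to 58.7% in WT zymosan libraries, and untreated *Mcu*-/- replicate 4 (open diamond) has the lowest *C1qb* share at 51.2%.

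*C3* rose with zymosan in both genotypes, 2.40-fold in WT and 2.68-fold in *Mcu*-/- macrophages. In WT macrophages it went from 146, 154, 159 and 139 CPM untreated to 375, 352, 339, 370.0 and 357 CPM with zymosan (log2 1.26, SE 0.17, edgeR adjusted p = 1.96e-06). With BAPTA-AM it was at 297, 309, 326 and 319 CPM, below every WT zymosan library and above every untreated one. That difference was a log2 of −0.20 (95% interval −0.54 to 0.15), not called with all libraries (edgeR adjusted p = 0.528) and called without replicate 4 (2.6e-05) or with the groups compared alone (6.01e-05). In *Mcu*-/- macrophages *C3* was at 135, 126, 133 and 54.6 CPM untreated and 301, 289 and 309.7 CPM with zymosan. Untreated replicate 4 was the lowest of all 20 libraries for *C3*, whereas for C1q it was near the highest. The zymosan groups of the genotypes did not overlap, with *C3* lower in *Mcu*-/- at a log2 fold change of −0.26 that was not called with all libraries (edgeR adjusted p = 0.221) and was called without replicate 4 (edgeR adjusted p = 2.45e-07). The difference of the zymosan responses, *Mcu*-/- minus WT, was a log2 of 0.16 (95% interval −0.36 to 0.68) with all libraries and −0.065 (−0.18 to 0.05) without replicate 4, called in neither.

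*Cfb*, which encodes the protease subunit of the alternative pathway convertase, had the largest response of the members in WT macrophages and was the lowest of them per kb of exon. It rose from 1.96, 2.42, 2.44 and 1.91 CPM to 10.3, 9.56, 9.03, 11.4 and 11.4 CPM with zymosan, 4.71-fold (log2 2.24, SE 0.13, edgeR adjusted p = 1.26e-11). These are counts of 34 to 57 per untreated and 177 to 209 per zymosan library, so a single value carries more counting error than for the other members. With BAPTA-AM, *Cfb* was at 7.47, 9.71, 9.28 and 9.25 CPM, a range that overlapped WT zymosan, and the log2 difference of −0.21 was called neither with nor without replicate 4 (edgeR adjusted p = 0.268 and 0.102). *Mcu*-/- macrophages had 2.62, 2.56, 2.41 and 2.10 CPM untreated and 5.06, 3.39 and 4.33 CPM with zymosan. The rise in *Mcu*-/- macrophages was 1.75-fold (log2 0.81, edgeR adjusted p = 7.03e-05), and all *Mcu*-/- zymosan libraries lay below all WT zymosan libraries. The difference of the responses was a log2 of −1.43 (SE 0.20, edgeR adjusted p = 3.06e-05) and −1.48 without replicate 4. Here replicate 4 lay within the range of the WT untreated libraries. *Cfb* overlaps the gene model Gm20547 on the same strand, which had 0 counts in every library. How reads that fall in both genes were counted is not given in the sources used here. If they were left out, the level of *Cfb* is too low.

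On the TMM scale, *Cfp* rose slightly with zymosan in WT macrophages and fell in *Mcu*-/- macrophages. In WT it was at 623, 654, 646 and 625 CPM untreated and 788, 799, 790.5, 769 and 819.7 CPM with zymosan, with no overlap and a log2 change of 0.32 (standard error 0.12, adjusted p = 0.0304 in edgeR). *Cfp* was no longer called for zymosan in WT after leaving out WT untreated replicate 1, 3 or 4 or WT zymosan replicate 5 (edgeR adjusted p = 0.0639, 0.0515, 0.0634 and 0.0541), at log2 fold changes of 0.30 to 0.32. BAPTA-AM macrophages had 766, 761, 750.1 and 717 CPM, just under the WT zymosan libraries (log2 −0.084). In *Mcu*-/- macrophages *Cfp* was at 662, 658, 648 and 345 CPM untreated and 392, 416 and 409 CPM with zymosan. Untreated replicates 1 to 3 were close to WT, while replicate 4 was under even the zymosan libraries. Compared with WT zymosan, *Cfp* was at 0.511 times the level in *Mcu*-/- macrophages (log2 −0.97, SE 0.14, edgeR adjusted p = 1.51e-05). The fall within *Mcu*-/- macrophages was a log2 of −0.51 with all libraries (edgeR adjusted p = 0.00348), was not called in a fit of the 2 *Mcu*-/- groups alone (0.104), and was −0.69 without replicate 4 (edgeR adjusted p = 1.21e-21).

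*C3ar1*, the receptor of C3a, was higher in *Mcu*-/- than in WT macrophages after zymosan. It had 595, 626, 613 and 608 CPM in WT untreated and 783, 798, 795, 761 and 751 CPM in WT zymosan macrophages. The groups did not overlap, but the log2 fold change of 0.35 was not called with all libraries (edgeR adjusted p = 0.0942), while it was without replicate 4 (1.84e-15), with the groups compared alone (2.21e-12) and by DESeq2 (0.0448). BAPTA-AM macrophages, at 684, 702, 703 and 689.9 CPM, lay between those groups. *Mcu*-/- macrophages had 603, 596, 628 and 1415 CPM untreated and 1524, 1563 and 1573 CPM with zymosan. Replicate 4 thus lay far above the other untreated libraries and close under the zymosan libraries. With zymosan the level was 2.00 times that of WT (log2 1.00, SE 0.19, edgeR adjusted p = 0.000222). The difference of the zymosan responses was 0.59 with all libraries (edgeR adjusted p = 0.0968), not called, and 1.00 without replicate 4 (edgeR adjusted p = 4.21e-23).

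*C5ar1*, the receptor through which C5a attracts and primes phagocytes, rose with zymosan in both genotypes. In WT macrophages it went from 176, 184, 188 and 174 CPM to 431, 432, 434, 420.5 and 416 CPM, 2.36-fold (log2 1.24, SE 0.16, edgeR adjusted p = 1.59e-06). With BAPTA-AM it was at 377, 370.2, 344 and 374 CPM, below all WT zymosan libraries and far above all untreated ones. The BAPTA-AM difference of −0.22 had a 95% interval of −0.55 to 0.11 with all libraries and −0.29 to −0.15 without replicate 4, and it was called only in the latter fit and with the groups compared alone. *Mcu*-/- macrophages had 194, 168, 181 and 379 CPM untreated and 661, 671 and 659 CPM with zymosan, 1.55-fold higher than WT with zymosan (log2 0.64, SE 0.17, edgeR adjusted p = 0.00341). Within *Mcu*-/- macrophages the rise was 2.88-fold with replicate 4 and 3.67-fold without it. The response exceeded that of WT by a log2 of 0.63 without replicate 4 (edgeR adjusted p = 1.31e-13), and by 0.28 with it, not called (edgeR adjusted p = 0.373).

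**Figure D3:**
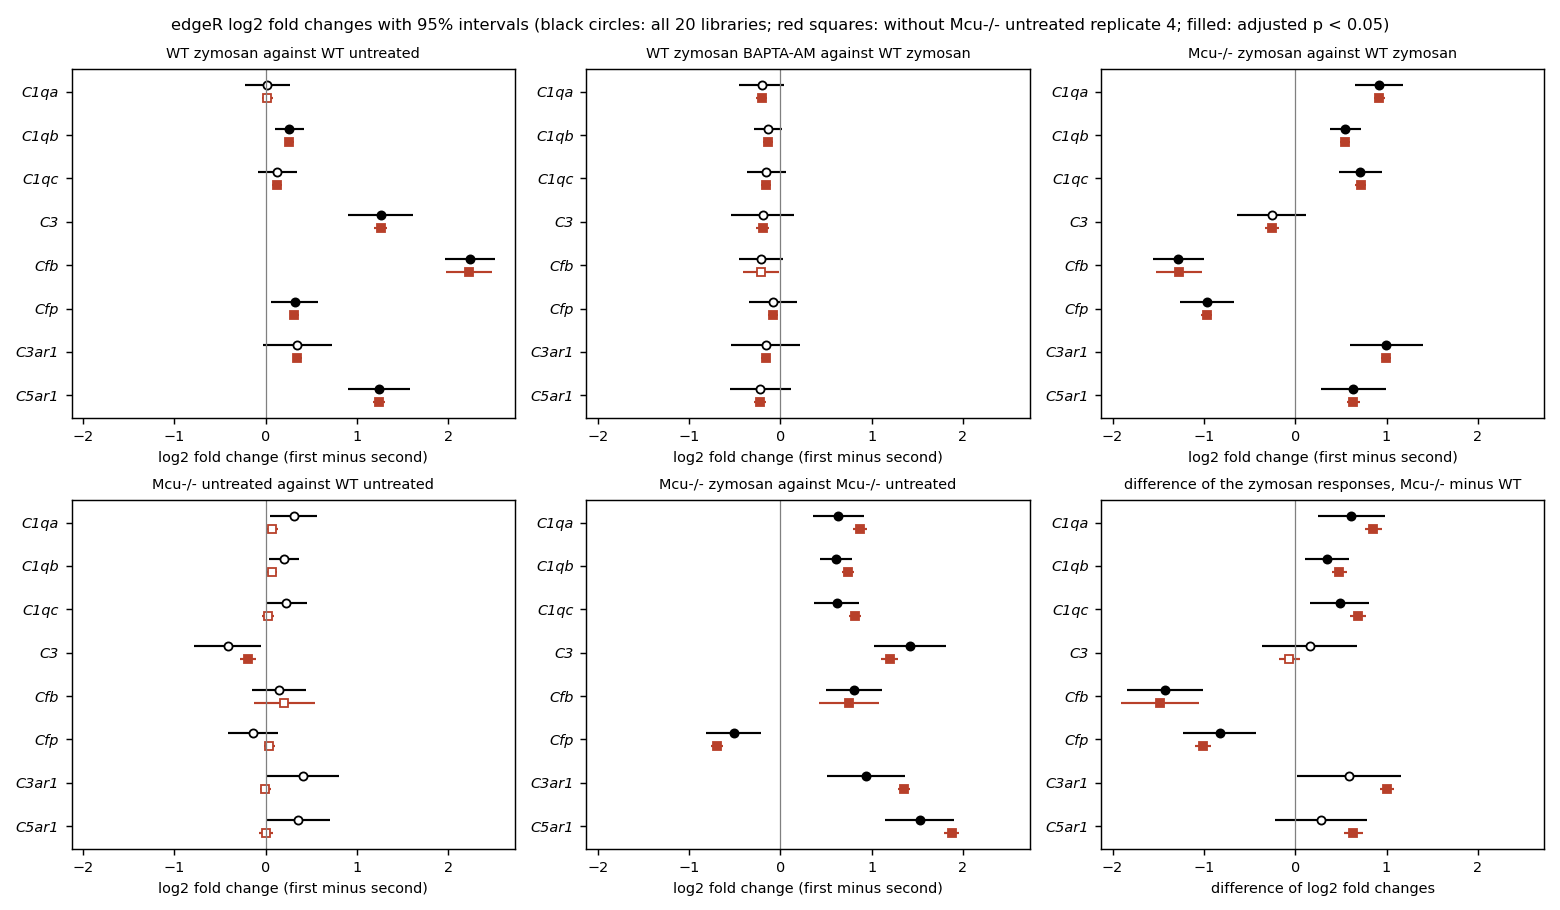
Log2 fold changes of the 8 members (x axes) with their 95% intervals in the 5 comparisons and the difference of responses, with all 20 libraries (black circles) and without untreated *Mcu*-/- replicate 4 (red squares), filled where the adjusted p was under 0.05. The intervals are narrower without that library, except those of *Cfb* in the comparisons with untreated *Mcu*-/- macrophages, and the 7 members lower with BAPTA-AM are filled in that fit only.

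Without zymosan, *C3* was the 1 member called different between genotypes, and only in the fit without replicate 4. In the fit of all libraries 0 members were called higher and 0 lower in the untreated *Mcu*-/- group against untreated WT, where 0.128% of all genes were higher and 0.222% lower. DESeq2 also called 0 members. At an unadjusted p under 0.05 edgeR had 5 members higher and 1 lower with all libraries, a threshold at which no share of all genes was computed. Without replicate 4, *C3* was lower at a log2 fold change of −0.19 (95% interval −0.28 to −0.11, edgeR adjusted p = 0.00449), beside 1.83% of genes lower and 1.53% higher. Its remaining *Mcu*-/- libraries, at 126 to 135 CPM, lay below the WT ones at 139 to 159 CPM. For the other 7 members the log2 difference without replicate 4 ran from −0.0044 to 0.20, the widest interval being that of *Cfb* (−0.13 to 0.54).

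Within *Mcu*-/- macrophages, on the TMM scale, edgeR called 7 members higher with zymosan and *Cfp* lower, with and without replicate 4. The exact permutation p was 0.0286, the smallest for these libraries, for *C3* and *Cfb*. It was 0.0571 for the C1q genes, *C3ar1* and *C5ar1*, and 0.143 for *Cfp*, whose groups overlapped. Without replicate 4 it was 0.1 for every member. Untreated replicate 4 was near the zymosan libraries for *C1qa*, *C1qc*, *C3ar1* and *Cfp*, but not for *C3*. Whether the differences come from zymosan or from the cultures was not tested. In all genes tested, 34.3% were higher and 39.4% lower with zymosan in the fit of all libraries, and 39.2% and 42.4% without replicate 4. The difference of the zymosan responses, *Mcu*-/- minus WT, was positive and called for *C1qa* (0.62), *C1qb* (0.35) and *C1qc* (0.49) and negative for *Cfb* and *Cfp* (−0.83), on the log2 scale. These 3 higher and 2 lower members stand beside 15.2% and 20% of all genes. For *C1qb* the call was lost when untreated *Mcu*-/- replicate 2 or 3 or *Mcu*-/- zymosan replicate 4 was left out (edgeR adjusted p = 0.0517, 0.0512 and 0.0534). Without untreated replicate 4 there were 5 higher members, *C3ar1* and *C5ar1* added, and 2 lower, beside 31% and 29.3% of all genes.

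Markers of macrophages and of other cell types moved along with these differences. The summed level of 7 macrophage markers was 13121 to 13525 CPM in WT untreated, 13474 to 13696 CPM with BAPTA-AM, 14999.6 to 15276 CPM in WT zymosan and 9075 to 9343 CPM in *Mcu*-/- zymosan libraries, a sum made up mostly of *Lyz2*, at 8183 ± 141 and 3242 ± 33.7 CPM, and *Adgre1*, at 4920.1 ± 114 and 2839.9 ± 82.05 CPM. The markers did not move one way, as the means of 3 of the 7 (*Lyz2*, *Adgre1* and *Itgam*) were lower in *Mcu*-/- and those of 4 were higher. The higher ones were *Cd68* (309 ± 12.05 CPM in WT and 1158 ± 16.4 CPM in *Mcu*-/- zymosan macrophages), *Csf1r* (562 ± 22.1 and 1079.8 ± 24.1 CPM), *Fcgr1* (212 ± 18.01 and 573 ± 14.5 CPM) and *Mertk* (60.6 ± 8.68 and 75.99 ± 1.88 CPM). The sum of 5 fibroblast markers was 2.67 to 4.11 CPM in WT untreated, 3.94 to 4.75 CPM with BAPTA-AM, 4.66 to 6.63 CPM in WT zymosan, 44.0 to 52.3 CPM in *Mcu*-/- zymosan and up to 28.3 CPM in untreated *Mcu*-/- libraries, the highest being replicate 4. *Col1a1* and *Col1a2* made up most of it, at 21.7 ± 3.67 and 23.2 ± 1.38 CPM in *Mcu*-/- zymosan macrophages, where *Dcn* and *Pdgfra* were at 0.286 ± 0.111 and 0.111 ± 0.0609 CPM. The sum of 6 neutrophil markers was 2.14 to 3.37 CPM in WT untreated, 2.85 to 4.84 CPM in WT zymosan, 2.10 to 3.04 CPM with BAPTA-AM, 0.159 to 2.49 CPM in untreated *Mcu*-/- and 0.396 to 0.589 CPM in *Mcu*-/- zymosan libraries. The sum of 6 dendritic cell markers, most of it *Xcr1* after zymosan, was 0.782 to 1.27 CPM in untreated libraries of both genotypes, 9.15 to 10.1 CPM in WT zymosan, 5.73 to 7.31 CPM with BAPTA-AM and 10.8 to 11.9 CPM in *Mcu*-/- zymosan libraries, with *Cd209a* at 0 throughout. Markers of B cells, T cells and mast cells or basophils summed to at most 2.96, 0.0565 and 0.155 CPM in any library. Of the macrophage sum, replicate 4 had 8358 CPM, the lowest of its group. The part of these shifts in the complement differences was not tested. In bulk RNA fewer cells of a type and less RNA per cell cannot be told apart.

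Among other complement genes, a list of 52 components, regulators and receptors was examined, of which 51 were in the table and 20 had enough counts to be tested. Only 16 reached a mean of 1 CPM in any group, and 10 had no count in any library. Of the terminal components, which form the membrane pore, 1 of 7 reached 1 CPM (*C8g*), and *Hc*, the gene of C5, had a mean of at most 0.053 CPM. Of the alternative pathway, *Cfd* (factor D) and *Cfi* (factor I) had group means of 0 to 0.017 CPM. So the transcripts of C1q, C3, factor B and properdin were present, but those of factor D, C5 and most terminal components were at or near 0.

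Zymosan raised 6 and lowered 2 of the 20 tested list genes in WT macrophages, beside 32.4% of all genes higher and 36.8% lower. *Itgax*, the alpha chain of complement receptor 4, rose from 2.38 ± 0.264 to 6.17 ± 1.06 CPM (log2 1.36, edgeR adjusted p = 0.00382). *Cd55*, which encodes decay-accelerating factor, rose from 194 ± 2.01 to 406 ± 20.04 CPM (log2 1.06). *C1ra*, of the C1r protease, and *Cd93*, a receptor once described as binding C1q, rose by 0.94 and 0.60 on the log2 scale, reads shared by *C1ra* with its close copy *C1rb* being unresolved. *C5ar2*, the other C5a receptor, fell from 1.81 ± 0.268 to 0.755 ± 0.101 CPM (edgeR adjusted p = 0.0482), opposite to *C5ar1*, and lost its call with DESeq2's size factors or with a looser count filter. *Lrp1*, an endocytic receptor, fell from 988 ± 23.6 to 565 ± 33.7 CPM. Without untreated *Mcu*-/- replicate 4, 9 were higher and 3 lower, beside 37.2% and 41.3% of all genes. The median log2 fold change was 0.26 over the list and −0.044 over all genes.

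With BAPTA-AM, 0 list genes were called in either direction by edgeR and by DESeq2, with 0 higher and 1 lower at an unadjusted p under 0.05 in edgeR. Without replicate 4 there were 7 lower, *Cd93* among them (229 ± 7.33 against 315 ± 16.5 CPM, edgeR adjusted p = 5.06e-13), and 0 higher, beside 16.5% of all genes lower and 15.3% higher. Between the genotypes after zymosan, 9 list genes were higher in *Mcu*-/- macrophages and 2 were lower, with and without replicate 4. Of all genes, 31.8% were higher and 30.3% lower with that library, and 36.4% and 33.7% without it. The rises were led by *Itgax* (24.96 ± 1.45 against 6.17 ± 1.06 CPM, log2 2.02), *C5ar2* (1.93), *Lrp1* (1605 ± 37.3 against 565 ± 33.7 CPM, 1.51) and the scavenger receptor gene *Colec12* (1.26), among called genes of at least 1 CPM. *Itgam* and *Itgb2*, the chains of complement receptor 3, were lower. *Itgam* was at 275 ± 7.63 against 869 ± 20.3 CPM (log2 −1.66, edgeR adjusted p = 1.66e-05) and *Itgb2* at 620.1 ± 9.40 against 1258 ± 32.9 CPM (−1.02). Thus *Itgax* and *Itgam*, whose products share the *Itgb2* chain, differed between genotypes in opposite directions. *Itgam* is also 1 of the 7 macrophage markers above. In untreated *Mcu*-/- replicate 4, *Itgax*, *C5ar2*, *Lrp1*, *Colec12*, *Itgam* and *Itgb2* were at 8.17, 9.32, 2032, 16.5, 238 and 623 CPM. Untreated *Mcu*-/- replicates 1 to 3 averaged 1.61, 1.62, 1026, 7.23, 759 and 1126 CPM. Whether the differences between genotypes after zymosan come from the genotype or from the cultures was not tested.

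In untreated macrophages 0 list genes differed between genotypes with all libraries, by edgeR and by DESeq2, with 3 higher and 1 lower at an unadjusted p under 0.05 in edgeR, and without replicate 4 only *Cd55* did (log2 −0.15). Within *Mcu*-/- macrophages 9 list genes were called higher with zymosan and 2 lower (*Itgam* and *Itgb2*), beside 34.3% of all genes higher and 39.4% lower. Without replicate 4, 13 were higher and 3 lower, beside 39.2% and 42.4%. With all libraries the groups overlapped for *Itgam* and *Itgb2* (exact permutation p = 0.143 and 0.0857). Untreated replicate 4 had *Itgam* at 238 CPM and *Itgb2* at 623 CPM, where the zymosan libraries had 270 to 284 and 610 to 629 CPM. *Itgax* rose most among called genes of at least 1 CPM, by a log2 of 2.96 with replicate 4 and 3.95 without it, from 3.25 ± 3.28 CPM untreated, or 1.61 ± 0.023 CPM without replicate 4, to 24.96 ± 1.45 CPM. The response of the list differed between genotypes in 3 genes upward (*Itgax*, *Colec12* and *Lrp1*) and 2 downward (*Itgam* and *Itgb2*), shares below the 15.2% and 20% of all genes, and in 9 and 3 without replicate 4, beside 31% and 29.3%. For *Itgax* that difference was a log2 of 1.59 with replicate 4 and 2.59 without it. *Cd55* responded by 1.06 in WT and 1.24 in *Mcu*-/- macrophages.

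**Figure D4:**
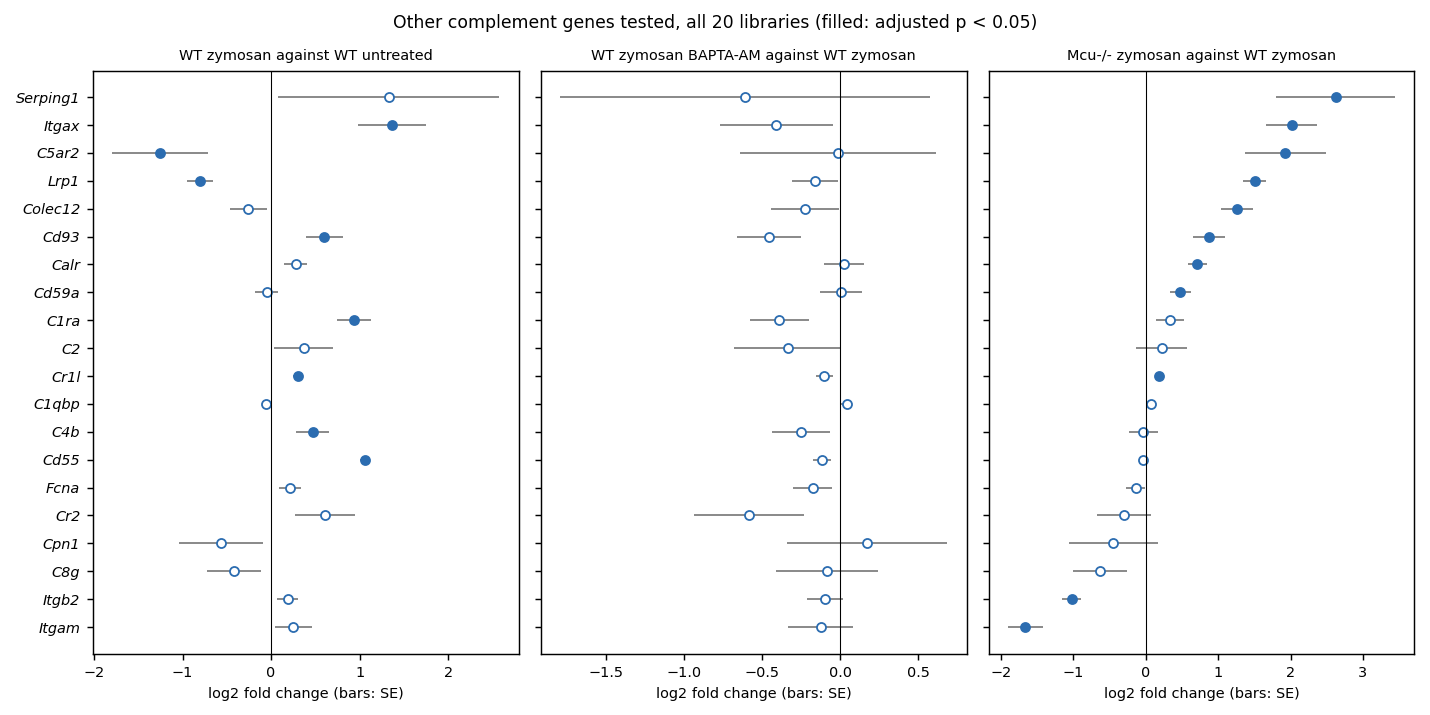
Log2 fold changes (x axes, bars are the standard error) of the 20 other complement genes tested (y axis) in 3 comparisons with all 20 libraries, filled where the adjusted p was under 0.05. *Itgax* is high in WT zymosan against untreated and in *Mcu*-/- against WT, and *Itgam* and *Itgb2* are the lowest points in the latter, at −1.66 and −1.02.

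Per kb of exon the members differed widely in level, and the order of their means was not the same in every group. In WT untreated macrophages the order was *C1qb* at 1037 ± 31.9 CPM per kb, *C1qa* at 427 ± 14.6, *C1qc* at 410 ± 16.3, *Cfp* at 367 ± 8.95, *C3ar1* at 142 ± 2.98, *C5ar1* at 70.3 ± 2.59, *C3* at 29.1 ± 1.76 and *Cfb* at 0.772 ± 0.101 (SD, n = 4). *C1qa* and *C1qc* overlapped in their range, and no other neighbours did. With zymosan in WT macrophages, *Cfp* (457 ± 10.6) was level with *C1qc* (447 ± 5.32) and *C5ar1* (166 ± 3.13) came close under *C3ar1* (181 ± 4.89), as means and SD of 5 libraries. With BAPTA-AM the order was the same as with zymosan alone and no neighbours overlapped. In *Mcu*-/- zymosan macrophages *Cfp* (234 ± 6.84) stood below *C3ar1* (361 ± 6.02) and *C5ar1* (258 ± 2.51), with no overlap between any neighbours (n = 3). In untreated *Mcu*-/- macrophages, where replicate 4 widened the ranges, the order of means was that of WT untreated macrophages.

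**Figure D5:**
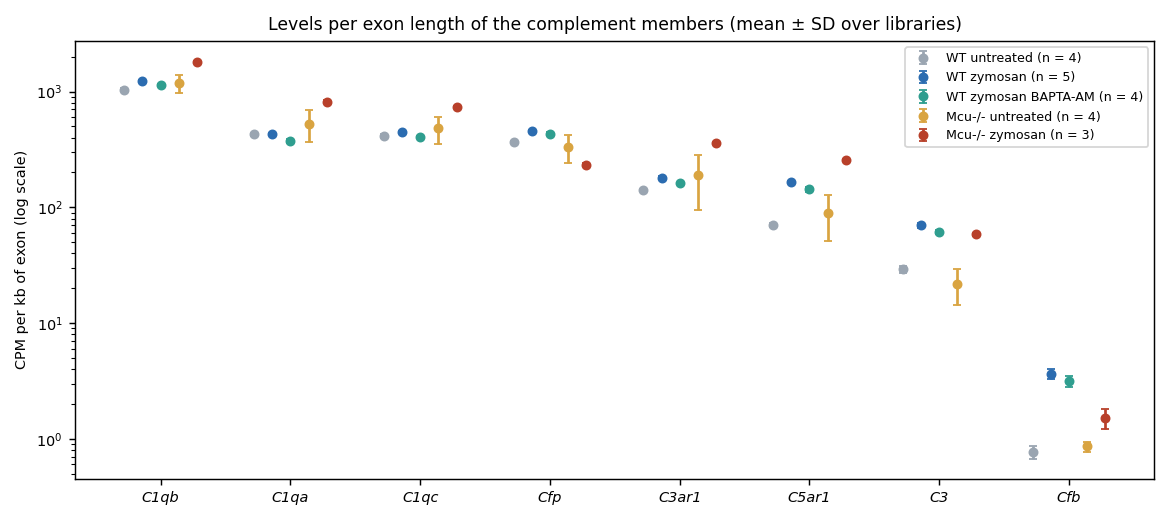
Mean CPM per kb of exon (y axis, log scale) of each member (x axis) by group, with the SD over libraries as bars. *C1qb* is the highest and *Cfb* the lowest in every group, and *Cfp* is the 1 member whose *Mcu*-/- zymosan value, 234, is its lowest.

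Over the 20 libraries, the genes whose log2 CPM followed each member most closely were sought among 10576 genes of at least 1 CPM on average, as a description without a test, since the libraries share their groups. *C1qa* was closest to *Igf2r*, *Siglec1* and *Cd9* (Pearson r = 0.992, 0.988 and 0.984), *C1qb* to *Capg*, *Ctsl* and *Msr1* (0.985, 0.985 and 0.984) and *C1qc* to *Cux1*, *Lgmn* and *Apoe* (0.992, 0.990 and 0.989). *C3* was closest to *Slco3a1*, *Rcsd1* and *Fpr2* (0.992, 0.991 and 0.990) and *Cfb* to *Ubald2*, *Clcn5* and *Slc28a2* (0.987, 0.986 and 0.986). *Cfp* was closest to *Adgre1*, the gene of the macrophage marker F4/80, then to *Rac2* and *Actg1* (0.996, 0.994 and 0.994). *C3ar1* was closest to *Ctss*, *Igf1* and *Rhoc* (0.996, 0.993 and 0.992) and *C5ar1* to *Cdkn1a*, *Sash1* and *Uba1* (0.996, 0.996 and 0.995). Among the members, *C1qa*, *C1qb*, *C1qc* and *C3ar1* moved alike (r from 0.905 to 0.979), *C3* and *Cfb* had an r of 0.864, and *Cfp* ran against *C1qa* (−0.918). Without untreated *Mcu*-/- replicate 4 the last pair of values was 0.920 and −0.908.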

How the data were processed

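RNA of BMDMs in 5 groups was sequenced by the authors, who removed adaptors with cutadapt, aligned the paired-end sequences with STAR (mm10 build) and counted reads per gene with HTSeq. The deposited values are raw counts per gene without normalization, in 1 table for the 20 libraries, identified by gene symbol. Whether counting used strand is not given in the sources used here. Counts were tested in R 4.3.3 with edgeR 4.0.16 (filterByExpr, TMM, quasi-likelihood fit of all 20 libraries, 1 coefficient per group, no covariate), with Benjamini-Hochberg adjustment over all 11707 genes tested, or 11666 without untreated *Mcu*-/- replicate 4. DESeq2 1.42.0 was an alternative. Standard errors were the log2 fold change over the root of F. CPM used the library size of tested genes times the TMM factor, with 0.5 counts added on the log2 scale, and levels per kb used the union exon length of GENCODE M21. Totals were 14.4 to 23.95 M counts, and on the TMM-scaled library sizes 1 CPM stood for 15.7 to 28.1 counts. The number of libraries limits the precision of each comparison, and the p-values rest on the spread between these libraries. How many mice or cultures the libraries of a group came from is not given in the sources used here.

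The members, the list of 52 other complement genes (1 further list gene is not reported here), the markers and the motifs were chosen with earlier results of these data known. All 8 members were named, and of the list the called genes whose higher group reached 1 CPM, up to 4 rises and 4 falls per comparison. For each member the 3 genes of highest Pearson r were named. Alternatives were DESeq2's size factors and test, a filter of 1 count in any library, the compared groups alone, the replicate number as a block, a minimum absolute log2 fold change of 1, and leaving out each library. The fitting script was tested on simulated data. Same-numbered libraries did not deviate together (r of −0.060 to 0.056), so numbers were not taken as pairs. Sequences came from RefSeq on GRCm38.p6, and figures were drawn with Python 3.11.15 and matplotlib 3.10.9.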

Additional observations from a re-analysis of the deposited data

Results flagged for a closer look

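Untreated *Mcu*-/- replicate 4 lay outside the rest of its group for 6 of the 8 members. For these its gap to the nearest library was too large a part of the group's range for 4 samples. Over all 32 sets of libraries examined (8 members in 4 groups), no other library lay outside its group in this way. Chance gives about 1 in 20 for a single set. The 6 come from the same library and several members move alike, so they are not independent. It was the highest of its group for *C1qa* (798 CPM), *C1qc* (1287 CPM), *C3ar1* (1415 CPM) and *C5ar1* (379 CPM), and the lowest for *C3* (54.6 CPM) and *Cfp* (345 CPM). For *C1qa*, *C1qc*, *C3ar1* and *Cfp* these values are near those of *Mcu*-/- zymosan macrophages. For *C3* (299.7 ± 10.4 CPM with zymosan, SD, n = 3) it lay further from them than the other untreated libraries did. Its fibroblast marker sum, 28.3 CPM, also lay between the other untreated and the zymosan libraries of *Mcu*-/-.

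The zymosan response differed between genotypes, by the test of the difference itself in edgeR with all 20 libraries, for 5 members. On the log2 scale the response of *Mcu*-/- minus that of WT was 0.62 for *C1qa* (edgeR adjusted p = 0.0121), 0.35 for *C1qb* (0.023), 0.49 for *C1qc* (0.0208), −1.43 for *Cfb* (3.06e-05) and −0.83 for *Cfp* (0.0029). Without replicate 4 the values were 0.85, 0.48, 0.69, −1.48 and −1.01, and all 5 were called. Over the alternatives the adjusted p ran from 1.26e-18 to 0.03 for *C1qa*, 3.76e-13 to 0.0534 for *C1qb*, 9.78e-17 to 0.048 for *C1qc*, 1.17e-08 to 0.000239 for *Cfb* and 1.65e-22 to 0.0109 for *Cfp*.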

How the results depend on the processing

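DESeq2's size factors, the looser count filter and the replicate block changed none of the 48 calls on members (8 in 6 comparisons), and DESeq2's test added *C3ar1* for zymosan in WT. With the replicate block, 5 members were higher for zymosan in WT and 5 higher and 2 lower for *Mcu*-/- against WT with zymosan, as without it. Without untreated *Mcu*-/- replicate 4, 13 calls on members were gained, 0 lost and 3 differences that were not called changed sign (*Mcu*-/- against WT untreated for *Cfp*, 0.042, and *C3ar1*, −0.0044, and the difference of responses for *C3*, −0.065). Leaving out the other 19 libraries changed 7 of 912 calls, those of *Cfp* and *C1qb* given above, and turned the *C1qa* response of WT to −0.0041 without WT untreated replicate 4. Over all libraries left out singly, these 4 values ran from −0.21 to 0.042, −0.0044 to 0.53, −0.065 to 0.26 and −0.0041 to 0.035. The cause of these changes was not tested.

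Leaving out 1 library at a time, members called ranged from 4 to 7 higher for zymosan in WT, 0 to 7 lower with BAPTA-AM, 0 to 1 lower for *Mcu*-/- against WT untreated and 2 to 5 higher for the difference of responses. List genes called ranged from 5 to 9 higher and 1 to 3 lower for zymosan in WT, 0 to 7 lower with BAPTA-AM, 0 to 1 lower for *Mcu*-/- against WT untreated, 7 to 13 higher for zymosan in *Mcu*-/-, and 2 to 9 higher and 2 to 3 lower for the difference. The highest of each range came without untreated *Mcu*-/- replicate 4.

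With the groups compared alone, 7 members and 7 list genes were lower with BAPTA-AM, and 0 members were lower with zymosan in *Mcu*-/-. DESeq2's size factors and the looser filter each left 1 list gene lower for zymosan in WT. With a minimum absolute log2 fold change of 1, members called were 3 higher for zymosan in WT, 0 higher and 1 lower for *Mcu*-/- against WT with zymosan, 2 higher and 0 lower for zymosan in *Mcu*-/-, and 0 higher and 1 lower for the difference. List genes were then 2 higher and 1 lower, 5 higher, 4 higher and 1 lower, and 1 lower, in that order. Shares of all genes called were computed only for the edgeR fits with all libraries and without untreated *Mcu*-/- replicate 4. Counts under the other alternatives therefore have no such share beside them.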
